A study of Mus musculus with 4 samples.

Results

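NKT-like T cells with Klrb1c were T cells of the mouse liver that also carried transcripts of Klrb1c, the gene of the natural killer receptor NK1.1. They were taken from single-cell libraries, made in droplets with 10x Genomics 3′ reagents, of liver non-parenchymal cells, which are the liver cells other than hepatocytes. Members were chosen by their own counts of 13 genes. A cell was a member if it held at least 2 unique molecular identifiers (UMIs, counts of captured molecules) over Cd3d, Cd3e and Cd3g, at least 1 of Klrb1c and at least 1 of the T cell receptor constant genes Trac, Trbc1 and Trbc2. It also had to be at 0 for Cd8a, Cd8b1, Foxp3, Trdc and Cd79a and to hold at most 1 UMI of Clec4f. This gave 575 members among 32150 kept cells, with 234 in HFD_EXE, 104 in HFD_sed and 237 in S. All mice were C57BL/6J aged 30 weeks, and the study varied a high fat diet (HFD) and exercise. HFD_EXE is read here as the diet with exercise, HFD_sed as the diet without it and S as a library whose title names no diet, because the labels do not spell these letters out. Each group had 1 library, the labels do not say how many animals it came from, and a further group named E was not analysed here. Differences between groups therefore have no replicate check, and no p-value is given for them.

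NKT cells carry a T cell receptor together with receptors otherwise found on natural killer (NK) cells. Those with the invariant receptor see lipids held by CD1d, depend on the transcription factor PLZF (gene Zbtb16) and release interferon gamma or interleukin 4 soon after stimulation. In the mouse liver they are a well-known large T cell population that patrols the sinusoids and is held there through the chemokine receptor CXCR6.

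The 3 libraries held between 59486055 and 82305931 UMIs in kept cells, and no barcode was shared by members of different libraries. Members had a median of 5564 UMIs in HFD_EXE, 4753 in HFD_sed and 6419 in S. Between 51 and 118 members per library met the rule after every cell was thinned at random to 1500 UMIs. The matrices held 11280 to 11752 barcodes, more than the captured cells that the protocol names, and how many captures a library joins is not known. Some members also held at least 10 UMIs of the listed markers of another cell type: 23 of 234 in HFD_EXE, 9 of 104 in HFD_sed and 12 of 237 in S. In HFD_EXE and S these were mostly endothelial markers (19 and 10 cells), and in HFD_sed mostly macrophage markers (6 cells). Of these, 16, 7 and 9 were also among the 5% of cells of their library with the highest Scrublet doublet scores.

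Most members carried Cxcr6 and Il2rb, markers of their name that were no part of the rule. Cxcr6 was detected in 77.8%, 83.7% and 90.7% of the members of HFD_EXE, HFD_sed and S. Il2rb, a chain of the interleukin 2 and 15 receptors, was detected in 98.7%, 93.3% and 98.3%. Cells that met the rest of the rule with Klrb1c at 0 held both genes too, at lower levels given further on. Cd3e, a gene of the rule, was detected in 85.0%, 78.8% and 88.6% of members, which follows in part from the choice. B cells, which should lack these transcripts, had a Cxcr6 UMI in 0.185%, 1.32% and 0.259% of cells and an Il2rb UMI in 4.44%, 3.04% and 2.98%, at median depths of 3684, 3018 and 3882 UMIs. Zbtb16 was found in 32.9%, 22.1% and 35.0% of members. The invariant receptor itself could not be read from these data: Trav11 had 4, 8 and 12 UMIs and Traj18 had 2, 0 and 6 UMIs over all members of HFD_EXE, HFD_sed and S. Members are therefore called NKT-like, and no split into CD1d-restricted and other cells was possible.

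Klrb1c, the Cd3 genes and the other genes of the rule chose the members, so their levels are a description. Members with exactly 1 Klrb1c UMI, just inside the limit, had 409, 594 and 619 CPM (the UMIs of a gene scaled by all UMIs of the summed cells) of Cxcr6 in HFD_EXE, HFD_sed and S, against 206, 296 and 360 CPM in cells just outside it, which met every other condition with Klrb1c at 0. Members with 3 or more Klrb1c UMIs had 362, 496 and 597 CPM. At the other limit, the 9, 8 and 3 members with a Cd3 sum of exactly 2 had 110.5, 343 and 221 CPM of Ncr1, the gene of the NK receptor NKp46. The 12, 19 and 11 cells with a Cd3 sum of 1 had 233, 361 and 580 CPM, and members with a sum of 3 or more had 13.6, 65.5 and 22.5 CPM. The members with the fewest Cd3 UMIs were thus also those with the highest Ncr1 level.

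Members made up a far smaller share of the T cells that met the rest of the rule in HFD_sed than in the other libraries. Among cells that met the rule apart from Klrb1c, 48.7% carried it in HFD_EXE (234 of 481, exact Clopper-Pearson 95% interval 44.1% to 53.2%). The share was 13.5% in HFD_sed (104 of 772, 11.1% to 16.1%) and 48.7% in S (237 of 487, 44.1% to 53.2%). The interval of HFD_sed did not overlap with those of HFD_EXE and S, whose intervals nearly coincided. HFD_sed differed on both sides of this ratio, since it held 668 cells without a Klrb1c UMI, against 247 in HFD_EXE and 250 in S. These cells were shallowest in HFD_sed, with a median of 3375 UMIs, against 4683 in HFD_EXE and 5477 in S. How many of them had Cd8a, Cd8b1 or Foxp3 transcripts that were missed was not tested. Of all kept cells, members were 2.24% in HFD_EXE, 0.940% in HFD_sed and 2.23% in S. A Klrb1c UMI was found in 0.554%, 0.507% and 0.778% of the B cells of these libraries, so carried-over Klrb1c RNA was low in each. Intervals cover counting error only, and the spread between animals is not known.

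HFD_sed was also lowest for Zbtb16 and at equal depth. Among the cells that met the rule apart from Klrb1c, Zbtb16 was detected in 23.9% in HFD_EXE (20.2% to 28.0%), 4.79% in HFD_sed (3.397% to 6.55%) and 25.9% in S (22.0% to 30.0%). In B cells the Zbtb16 share was 0.554%, 0.406% and 0.908%. In endothelial cells it was 3.67%, 0.422% and 4.01%, at median depths of 6081, 6304 and 7946 UMIs, so HFD_sed was lowest there too, and the part of endothelial RNA in the T cell shares was not tested. Without cells holding 10 or more UMIs of another type's markers, the Zbtb16 share of the T cells was 22.9%, 4.91% and 26.1%. After each cell was thinned to 1500 UMIs, the Klrb1c share was 25.9% in HFD_EXE, 7.17% in HFD_sed and 25.2% in S, with 1150, 1069 and 790 shallower cells of these libraries left out. The thinned Zbtb16 share was 10.3%, 1.97% and 6.84%.

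**Figure D1:**
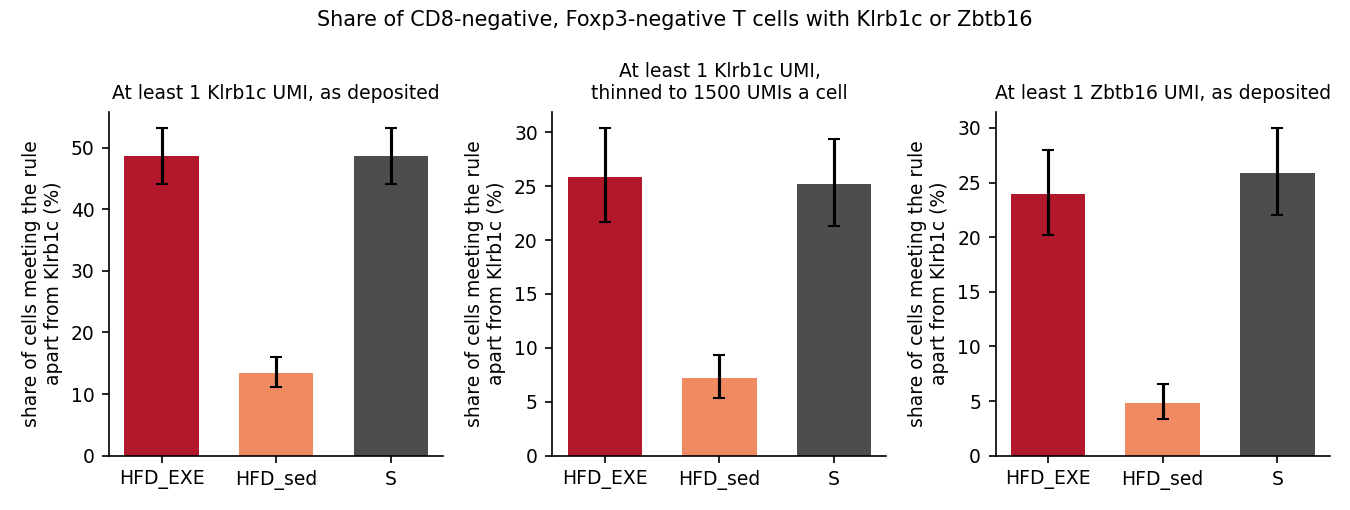
Share (%) of cells meeting the rule apart from Klrb1c that held at least 1 Klrb1c UMI (left), the same after thinning to 1500 UMIs a cell (middle), and at least 1 Zbtb16 UMI (right), by library. Bars are shares and lines exact 95% intervals for counting error; HFD_sed is lowest in each panel, at 13.5%, 7.17% and 4.79%.

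Against the T cells that met the same rule with Klrb1c at 0 (Klrb1c-zero T cells), the members stood out by their NK receptors and killing genes and by few transcripts of recirculating T cells. Of 11467 genes tested over 3 pairs of sums, 1 pair per library, 327 were higher in NKT-like cells (2.85%) and 438 were lower (3.82%) at an adjusted p under 0.05 in edgeR's quasi-likelihood test with the library as a block. The median log2 ratio of all genes tested was −0.01. The p-values measure the spread between these 3 libraries. Members were deeper than Klrb1c-zero T cells, whose median UMIs were 4683, 3375 and 5477, and with all cells thinned to 1500 UMIs the test called 32 genes higher and 35 lower. Without S, the counts were 165 and 250, and without HFD_EXE 283 were lower. A Klrb1c count of 0 can also be a missed transcript. After the thinning, 105, 51 and 118 cells of HFD_EXE, HFD_sed and S met the rule, and 301, 660 and 350 had Klrb1c at 0. As deposited, Zbtb16 was detected in 15.4%, 2.10% and 17.2% of Klrb1c-zero T cells. How many of these were missed members was not tested.

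The listed NK lectin receptors were the group with the most calls: 15 of 18 were higher in NKT-like cells, none was lower, and their median log2 ratio was 2.55. They are surface receptors of NK cells, 17 of them encoded beside Klrb1c on chromosome 6, in a stretch where RefSeq lists 42 coding genes from Klrb1a to Klra1 in GRCm38.p6. Klrk1, the activating receptor NKG2D, had 387, 791 and 388 CPM in NKT-like cells of HFD_EXE, HFD_sed and S, against 133, 157 and 127 CPM in Klrb1c-zero T cells of the same libraries. Its log2 ratio was 1.88 ± 0.15 (SE; edgeR adjusted p = 6.2e-06). Klrd1, the CD94 chain that pairs with NKG2 receptors, had 217, 351 and 288 CPM, against 67.5, 61.0 and 56.0 CPM (log2 ratio 2.24 ± 0.15, adjusted p = 1.53e-06). NKT-like cells lay above Klrb1c-zero T cells of every library for both genes. The Klrd1 partners Klrc1 (log2 ratio 2.37 ± 0.16) and Klrc2 (2.47 ± 0.16) and the neighbouring Klre1 (2.69 ± 0.17) were higher at an adjusted p of 1.43e-06 each in edgeR's test.

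The Ly49 receptors, which bind class I histocompatibility molecules, were higher too, with Klra7 and Klra9 each detected in a minority of members. Klra7 had 59.3, 170 and 35.5 CPM in NKT-like cells of HFD_EXE, HFD_sed and S, against 14.1, 30.3 and 11.2 CPM in Klrb1c-zero T cells (log2 ratio 2.24 ± 0.20, edgeR adjusted p = 1.13e-05). It was detected in 7.69%, 22.1% and 5.91% of members. Klra9 was detected in 7.69%, 22.1% and 7.59% of members (log2 ratio 3.02 ± 0.32, edgeR adjusted p = 6.22e-05). The share of members with any Ly49 transcript was not counted, and transcripts with so few UMIs can be missed in single cells. The members of the list that did not pass the test were Klrb1f (log2 ratio 0.67 ± 0.21, edgeR adjusted p = 0.0728), Klra3 (1.31 ± 0.38, adjusted p = 0.0571) and Klrg1 (0.42 ± 0.39, adjusted p = 0.653). Reads of Ly49 genes, and of Klrb1a and Klrb1b beside Klrb1c, may be split between near-identical copies, so their single values are uncertain. With members holding 2 or more Gzma UMIs left out, the median of the list was 1.99.

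Promoters are shown for the gene that defined the members, for 2 lectin receptor genes that were higher with it and for Cxcr6, because these were among the genes that set the cells apart. Each runs from 250 bases before to 50 bases after the start of the gene, 5′ to 3′ on the gene's own strand, from RefSeq on GRCm38.p6, while the counts were made on GRCm39. Capitals mark the letters TGTGGT or their reverse complement ACCACA, the core that Runx transcription factors bind. The positions are chr6:128788592-128788891 (minus strand) for Klrb1c, chr6:129623815-129624114 (minus strand) for Klrk1, chr6:129678924-129679223 (minus strand) for Klrc1 and chr9:123806227-123806526 (plus strand) for Cxcr6.
Klrb1c: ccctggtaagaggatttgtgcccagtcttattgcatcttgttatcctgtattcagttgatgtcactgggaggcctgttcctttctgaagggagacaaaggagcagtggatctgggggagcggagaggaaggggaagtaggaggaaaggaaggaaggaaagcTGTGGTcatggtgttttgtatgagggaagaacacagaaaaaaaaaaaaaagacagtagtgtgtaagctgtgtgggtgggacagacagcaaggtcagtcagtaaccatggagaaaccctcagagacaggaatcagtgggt
Klrk1: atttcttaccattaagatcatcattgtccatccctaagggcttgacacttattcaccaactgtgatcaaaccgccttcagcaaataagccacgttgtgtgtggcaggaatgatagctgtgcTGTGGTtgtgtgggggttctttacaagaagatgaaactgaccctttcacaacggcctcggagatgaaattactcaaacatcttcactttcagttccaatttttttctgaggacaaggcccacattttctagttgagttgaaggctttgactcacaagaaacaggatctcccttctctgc
Klrc1: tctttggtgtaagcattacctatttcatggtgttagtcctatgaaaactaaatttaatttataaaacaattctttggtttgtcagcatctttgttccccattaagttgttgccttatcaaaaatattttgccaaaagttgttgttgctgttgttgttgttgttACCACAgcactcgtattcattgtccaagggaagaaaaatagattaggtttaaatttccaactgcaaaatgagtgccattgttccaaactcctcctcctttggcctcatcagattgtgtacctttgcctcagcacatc
Cxcr6: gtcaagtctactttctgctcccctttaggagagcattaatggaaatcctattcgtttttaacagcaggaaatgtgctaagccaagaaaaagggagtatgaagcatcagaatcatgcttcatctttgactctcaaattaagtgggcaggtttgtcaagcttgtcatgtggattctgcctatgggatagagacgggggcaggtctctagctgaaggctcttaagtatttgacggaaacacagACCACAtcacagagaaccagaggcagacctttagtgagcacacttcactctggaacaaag
Each of them held 1 match. Both lectin receptor genes shown are among the 6 of 15 with a match, so the promoters shown do not represent the list. Klre1, not shown, had an entry with 1 match and another with 0. On either strand, the letters were found in 5506 of 32851 promoters of this length in the table (16.8%), in the promoters of 6 of the 15 listed lectin receptor genes with an entry, of 8 of 12 listed cytotoxic effector genes and of 1 of 7 listed genes of naive T cells. The T-box letters AGGTGTGA, searched with their reverse complement TCACACCT, were found in 1.28% of all promoters, in none of the 15 lectin receptor promoters, in 1 of 8 of the interferon gamma type and in 1 of 12 cytotoxic ones (Nkg7 in both), and in none of the 7 naive ones. In both searches a listed gene counted if any of its promoter entries matched, while the shares of all promoters are over single entries. The list counts and those shares are therefore unlike measures. A match is a run of letters and does not show that a factor is bound there.

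Genes of NKT cell identity were split. Of 16 listed genes, 6 were higher in NKT-like cells (Zbtb16, Tbx21, Il2rb, Cxcr6, Id2 and Cd44) and 2 were lower (Slamf6 and Cd5), with a median log2 ratio of 0.15. Zbtb16 had 91.1, 56.5 and 72.2 CPM in NKT-like cells of HFD_EXE, HFD_sed and S, against 45.3, 11.7 and 44.8 CPM in Klrb1c-zero T cells (log2 ratio 1.16 ± 0.23, edgeR adjusted p = 0.00582). Cxcr6 had 381, 493 and 626 CPM, against 206, 296 and 360 CPM (0.84 ± 0.10, adjusted p = 0.000149). Il2rb had 1493, 954 and 1173 CPM, against 815, 484 and 542 CPM (1.02 ± 0.09, adjusted p = 8.18e-06). All 3 were higher in NKT-like cells of each library, but Klrb1c-zero T cells were not without them. Slamf6, a receptor needed for NKT cell selection in the thymus, went the other way with 48.9, 36.0 and 45.3 CPM, against 135, 170 and 196 CPM (−1.88 ± 0.16, adjusted p = 7.57e-06).

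NKT cells are grouped by their cytokines, and most listed genes of the interferon gamma type were higher. Of 11 genes listed for it, 10 were higher in NKT-like cells than in Klrb1c-zero T cells and none was lower, with a median log2 ratio of 1.01. Klrd1 and Klrk1 are also on the list of lectin receptors. Against the NK cells described further on, 1 of the 11 was higher (Cxcr3) and 1 lower (Ccl5), with a median of −0.37. The list thus did not set the members apart from NK cells. Xcl1, a chemokine that draws dendritic cells, had 161, 447 and 348 CPM in NKT-like cells of HFD_EXE, HFD_sed and S, against 73.5, 107 and 160 CPM in Klrb1c-zero T cells (1.49 ± 0.17, edgeR adjusted p = 0.00012). Tbx21, the gene of T-bet, had 54.8, 77.1 and 110 CPM, against 33.4, 54.9 and 60.6 CPM (0.74 ± 0.14, adjusted p = 0.00513). Ifng had 118, 154 and 184 CPM, against 51.2, 133 and 127 CPM (0.65 ± 0.15, adjusted p = 0.0196). The groups of 3 sums overlapped for Tbx21 and Ifng, although each library on its own had more in NKT-like cells.

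The lists of the interleukin 4 and interleukin 17 types were less well measured. Of 6 tested genes of the interleukin 4 type, 1 passed the test, Il6ra, and it was lower (−3.13 ± 0.39, edgeR adjusted p = 0.000247). Il4 itself had 24.4, 46.2 and 63.0 CPM in NKT-like cells of HFD_EXE, HFD_sed and S, against 13.4, 7.20 and 44.2 CPM in Klrb1c-zero T cells, and its adjusted p was 0.0501 (log2 ratio 1.12 ± 0.32). Il17a and Ccr6, which mark the interleukin 17 type, were at 0 UMIs in the members of all 3 libraries. Tmem176a (0.98 ± 0.14, adjusted p = 0.000539) and Tmem176b (1.26 ± 0.17, adjusted p = 0.000378), listed with that type because they are high in it, were higher in NKT-like cells.

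Cytotoxic effectors were mostly higher. Of 12 tested genes 8 rose, and Gzmk fell (−1.97 ± 0.35, edgeR adjusted p = 0.00298), with a median log2 ratio of 0.77. Granzyme B (Gzmb) had 399, 519 and 228 CPM in NKT-like cells of HFD_EXE, HFD_sed and S, against 173, 147 and 87.6 CPM in Klrb1c-zero T cells (1.51 ± 0.13, adjusted p = 1.09e-05). Perforin (Prf1), which opens the target membrane, had 69.6, 95.9 and 67.3 CPM, against 32.6, 21.6 and 30.3 CPM (1.48 ± 0.21, adjusted p = 0.000534). Gzma (3.797 ± 0.27, adjusted p = 1.73e-06) came from few cells and is described further on.

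Genes of naive and recirculating T cells were lower as a group. Of 10 listed genes 8 fell in NKT-like cells, and Satb1 rose (0.60 ± 0.15, edgeR adjusted p = 0.0236), with a median log2 ratio of −1.66. S1pr1, the receptor with which lymphocytes leave tissue, had 84.4, 56.5 and 40.4 CPM in NKT-like cells of HFD_EXE, HFD_sed and S, against 300, 237 and 312 CPM in Klrb1c-zero T cells (−2.25 ± 0.18, adjusted p = 6.85e-06). Tcf7, the transcription factor TCF1 of naive and memory T cells, had 102, 82.2 and 78.4 CPM, against 332, 345 and 414 CPM (−2.03 ± 0.14, adjusted p = 1.53e-06). Ccr7, used to enter lymph nodes, fell too (−2.80 ± 0.25, adjusted p = 1.13e-05). Dapl1 had 1.48, 0 and 1.22 CPM, against 46.0, 27.3 and 93.6 CPM, and Itga4, an integrin chain that binds VCAM1, had 97.8, 211 and 72.2 CPM, against 395, 577 and 265 CPM (−1.74 ± 0.13, adjusted p = 3.03e-06).

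Other groups moved in part, beside 2.85% of all genes tested higher and 3.82% lower. Median log2 ratios were −0.58 for helper T cell genes, −0.14 for checkpoint receptors, 0.03 for homing and residency and 0.43 for cytokines and chemokines. Of 12 helper T cell genes 4 were lower, among them Cd4 (−1.60 ± 0.23, edgeR adjusted p = 0.000564) and Ctla4 (−2.40 ± 0.21, adjusted p = 1.13e-05), and Il2ra was higher. Of 9 checkpoint receptors, Cd160, Cd244a and Entpd1 were higher and Pdcd1, Ctla4 and Tox lower. Of 18 genes of homing and residency, 4 were higher, among them Cxcr6, Ccr2 and Rgs1, and 4 were lower, among them Ccr7, S1pr1 and Klf2. Of 15 cytokines and chemokines, Ifng, Xcl1, Ccl3, Ccl4 and Ccl5 were higher and Il21 and Lta lower.

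Markers of other cell types also differed between the gates. All 8 endothelial markers were lower in NKT-like cells (median log2 ratio −0.95), with summed levels of 1520, 839 and 888 CPM in NKT-like cells of HFD_EXE, HFD_sed and S, against 3429, 1360 and 1782 CPM in Klrb1c-zero T cells. Of 7 neutrophil markers 5 were higher (median 1.69), with summed levels of 931, 1956 and 306 CPM, against 180, 464 and 167 CPM. Without the cells that held 10 or more UMIs of another type's markers, 1 of 8 endothelial markers was lower and 1 of 6 neutrophil markers higher, while 14 of 17 lectin receptors and 9 of 11 genes of the interferon gamma type were higher and 9 of 10 naive genes were lower. The cells were left out by these same endothelial and neutrophil markers, so the loss of those calls follows in part from the choice. Over all genes, 266 were then higher and 238 lower.

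**Figure D2:**
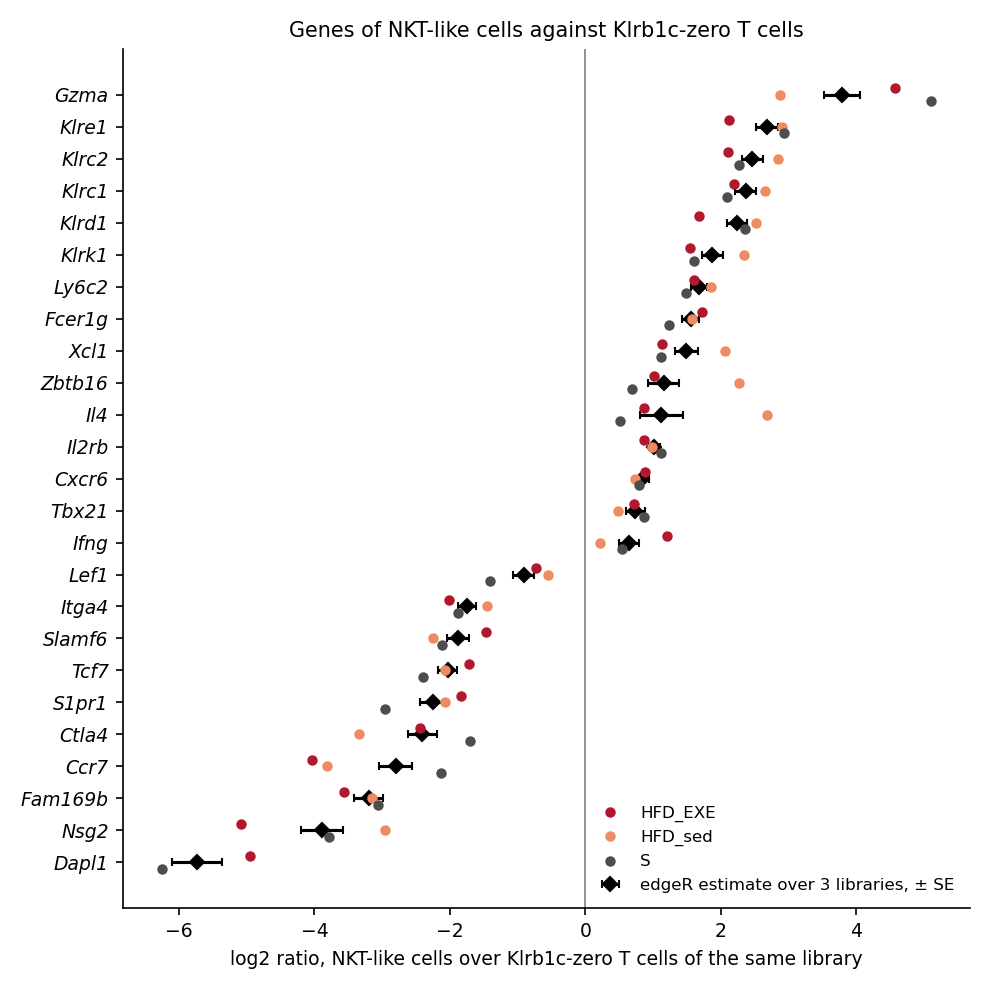
Log2 ratio of NKT-like cells over Klrb1c-zero T cells for the 16 genes named by rule and 9 listed genes. Dots are single libraries (HFD_EXE, HFD_sed, S) and diamonds the edgeR estimate with its SE; Dapl1 has no dot for HFD_sed, where NKT-like cells held 0 of its UMIs. NK receptors lie to the right of 0 and genes of recirculating T cells to the left in each library drawn.

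The Gzma transcripts of the members came from a small and distinct set of cells. Granzyme A was at 0 or 1 UMI in most members, while 11 of 234 members in HFD_EXE (4.70%, exact 95% interval 2.37% to 8.26%), 24 of 104 in HFD_sed (23.1%, 15.4% to 32.4%) and 15 of 237 in S (6.33%, 3.59% to 10.2%) held 2 or more. These cells carried 546 of the 552 Gzma UMIs in HFD_EXE, 579 of 580 in HFD_sed and 518 of 521 in S. A Gzma UMI was found in 1.48%, 2.74% and 2.20% of B cells. The limit of 2 UMIs was chosen after the values were seen, so what follows is a description.

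Members with 2 or more Gzma UMIs held more of several NK cell transcripts than the other members did, and they also held Cxcr6. In the 5, 12 and 28 Ncr1 cells without Cd3 and T cell receptor transcripts described further on, Cxcr6 was at 0 UMIs. The 12, 19 and 11 cells that met the rest of the rule with a Cd3 sum of 1 had 279, 68.3 and 122 CPM of it. Whether the Gzma cells differ from innate lymphoid cells was not tested. Cxcr6 was detected in 6 of 11, 17 of 24 and 11 of 15 of them in HFD_EXE, HFD_sed and S, with 315, 388 and 308 CPM, against 384, 517 and 649 CPM in the other members. Ncr1 was detected in 7 of 11, 10 of 24 and 13 of 15 of them in HFD_EXE, HFD_sed and S, against 3 of 223, 4 of 80 and 4 of 222 of the other members. Tyrobp, an adaptor of activating NK receptors, had 1651, 1192 and 1231 CPM in them, against 144, 341 and 74.2 CPM. Ccl5 had 9157, 12790 and 7493 CPM, against 2921, 3262 and 2413 CPM. Genes of NKT cells and helper T cells were rarer: Zbtb16 was detected in 1 of 11, 1 of 24 and 2 of 15 of them, against 76 of 223, 22 of 80 and 81 of 222. Cd4 was detected in 0 of 11, 1 of 24 and 1 of 15, against 60 of 223, 12 of 80 and 75 of 222. Their median Cd3 sum was 9, 9 and 5 UMIs, against 11, 8.5 and 11 UMIs. Of these cells 1, 2 and 0 were among the 5% with the highest Scrublet scores of their library. The HFD_sed share of members among cells meeting the rule apart from Klrb1c was 10.4% without them, against 46.4% in HFD_EXE and 45.6% in S.

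**Figure D3:**
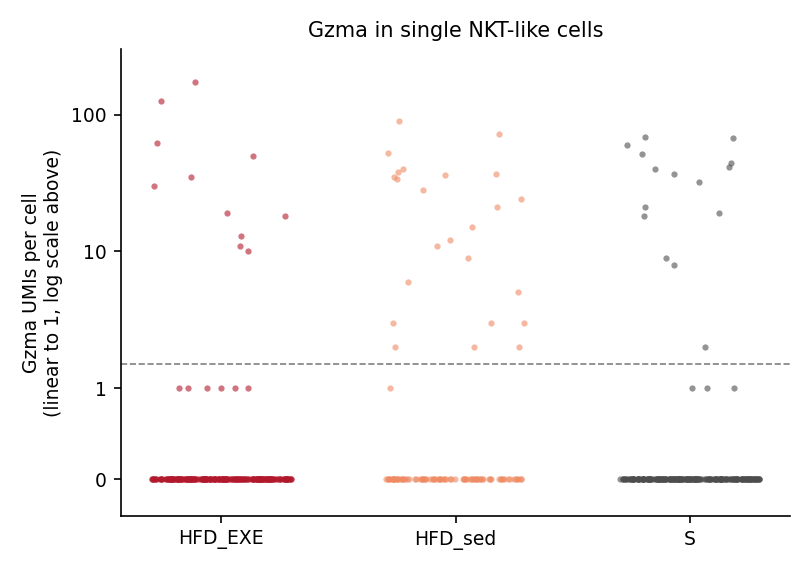
Gzma UMIs in each NKT-like cell by library (linear up to 1 UMI, log scale above); dots are cells, spread sideways at random, and the dashed line separates cells with 2 or more UMIs. Most cells lie at 0, and 11, 24 and 15 cells of HFD_EXE, HFD_sed and S lie above the line.

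Il4 was found more often in members that also held Zbtb16. Among members with a Zbtb16 UMI, Il4 was detected in 19.5%, 34.8% and 37.3% in HFD_EXE, HFD_sed and S, against 8.92%, 14.8% and 28.6% of members without one. Members with a Zbtb16 UMI were also deeper, with medians of 6356, 5614 and 6825 UMIs, against 5199, 4665 and 6112, and the part of depth in this was not tested.

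Against NK cells, the members differed by T cell genes on one side and by NK genes on the other. The NK cells held at least 1 UMI each of Klrb1c and Ncr1 and none of the Cd3 or T cell receptor constant genes. Their limits for Cd79a and Clec4f were those of the members. Type 1 innate lymphoid cells would also meet these limits, so the cells called NK cells here may include them. The gate held 5 cells in HFD_EXE, 12 in HFD_sed and 28 in S, with summed UMIs of 11016, 67603 and 125988. Leaving out cells with 10 or more UMIs of another type's markers cut HFD_sed to 11 NK cells and 37052 UMIs. The HFD_sed levels of NK cells given below include what was left out there. Of 9 macrophage markers, 6 were lower in NKT-like cells, and 0 without such cells. Macrophage markers were among those used to leave cells out, so that loss follows in part from the choice. Of 18 lectin receptors, 11 were lower without such cells. Of 9266 genes tested, 137 were higher in NKT-like cells (1.48%) and 92 were lower (0.993%) in edgeR's test with the library as a block, and the median log2 ratio of all genes was 0.26. Without scaling beyond the total of each sum, 184 genes were lower. These few NK cells limit the comparison: without S the counts were 18 and 28, without HFD_sed 22 and 44, and without HFD_EXE 149 genes were lower. With a wider NK gate of 51, 105 and 148 cells, 289 genes were higher and 289 lower.

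Cxcr6 had 381, 493 and 626 CPM in NKT-like cells of HFD_EXE, HFD_sed and S and 0 UMIs in the NK cells of each library (edgeR adjusted p = 6.59e-16). Bcl11b, a transcription factor that T cells need to keep their identity, had 259, 236 and 283 CPM in NKT-like cells and 0 UMIs in NK cells (adjusted p = 3.33e-10). Il7r, the interleukin 7 receptor that T cells use for survival, had 952, 610 and 315 CPM, against 182, 0 and 0 CPM in NK cells (adjusted p = 1.7e-13). Cd6, a surface receptor of T cells that was no part of the rule, had 192, 176 and 186 CPM and 0 UMIs in NK cells (adjusted p = 6.19e-08). The Il7r value of HFD_EXE NK cells rested on 2 UMIs. Of the 10 listed T cell genes 7 were higher in NKT-like cells, and of 8 tested helper genes 7 were. Because a T cell receptor was required of one gate and barred from the other, a difference in T cell genes partly follows from the gates.

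Genes of mature NK cells were lower in NKT-like cells. Eomes, a T-box factor of circulating NK cells, had 8.89, 18.8 and 9.79 CPM in NKT-like cells of HFD_EXE, HFD_sed and S, against 182, 399 and 302 CPM in NK cells (log2 ratio −4.33 ± 0.51, edgeR adjusted p = 3.49e-14). Itga2, the integrin chain CD49b, had 22.2, 18.8 and 20.2 CPM, against 545, 340 and 349 CPM (−3.88 ± 0.47, adjusted p = 2.09e-13). Prf1 had 69.6, 95.9 and 67.3 CPM, against 1089, 740 and 1778 CPM (−3.52 ± 0.42, adjusted p = 4.34e-14). The groups did not overlap for any of these, but the HFD_EXE values of NK cells rested on only 2, 6 and 12 UMIs. Klra4 (−5.93 ± 0.53) and Klra8 (−5.34 ± 0.47) were lower at an adjusted p of 1.15e-25 each in edgeR's test, and Gzma at 2.31e-15 (−3.21 ± 0.36). Of 18 lectin receptors 9 were lower in NKT-like cells than in NK cells, and of 12 NK and type 1 innate lymphoid genes 7 were lower, while Gzmc and Itga1 were higher. The Gzmc call rested on few cells, since 1 HFD_sed member held 82 of 91 UMIs and 1 HFD_EXE member 14 of 25. Itga1, the CD49a chain of tissue-resident lymphocytes, had 327, 276 and 278 CPM, against 0, 104 and 159 CPM (1.53 ± 0.47, adjusted p = 0.0498).

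Between the libraries, members were compared by summed levels with counting intervals. Of 7267 genes measured for HFD_EXE over HFD_sed, 317 were at least 2-fold higher (4.36%) and 250 lower (3.44%). For HFD_sed over S, 292 of 7636 were higher (3.82%) and 344 lower (4.5%), and for HFD_EXE over S, 295 of 8547 were higher (3.45%) and 215 lower (2.52%). Many of the largest ratios rested on single cells: in S, 1 member held 252 of 254 Igfbp5 UMIs, and in HFD_sed, 1 member held 48 of 54 Chil3 UMIs and another 82 of 91 Gzmc UMIs. The genes described next were therefore named after the data were seen, without the members holding 10 or more UMIs of another type's markers and among genes detected in at least 10% of the members of the higher library. Their levels and ratios leave these cells out, in Klrb1c-zero T cells too.

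A set of genes was highest in HFD_EXE. Serpina3f, a serine protease inhibitor of activated lymphocytes, had 482 CPM in HFD_EXE (exact Poisson 95% interval 442 to 524), 110 CPM in HFD_sed (82.1 to 145) and 60.3 CPM in S (48.4 to 74.2). Its log2 ratio was 2.13 for HFD_EXE over HFD_sed (1.71 to 2.57) and 2.999 for HFD_EXE over S (2.67 to 3.34), and it was detected in 63.0%, 24.2% and 25.8% of members. Tmem106b, a lysosomal membrane protein, had 408, 151 and 92.8 CPM in HFD_EXE, HFD_sed and S and was detected in 78.7%, 44.2% and 40.0% of members. Serpina3g had 549, 218 and 135 CPM. Bcl2l11, the cell death inducer BIM, had 432, 173 and 213 CPM. Fkbp5, a classic target of glucocorticoid receptors, had 96.2, 25.9 and 33.2 CPM and was detected in 35.5% of HFD_EXE members and 10.5% of HFD_sed members. Fech, picked by the same rule, had 27.4, 2.16 and 27.8 CPM, so HFD_EXE was not above S. In each of the other 5 genes HFD_EXE was highest, and its interval did not overlap with that of HFD_sed. All were picked for a high ratio of HFD_EXE over HFD_sed, so the gap between these intervals follows from the choice.

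In T cells without Klrb1c, these genes were also highest in HFD_EXE. Serpina3f had 259, 75.6 and 47.0 CPM in Klrb1c-zero T cells of HFD_EXE, HFD_sed and S, Tmem106b had 203, 79.8 and 56.1 CPM and Fkbp5 had 114, 46.6 and 36.4 CPM. HFD_EXE was thus highest on both sides of the Klrb1c limit, and whether the size of the difference changed across it was not tested. The Klrb1c-zero gate may hold missed members, in shares that may vary by library.

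A further set was higher in both HFD libraries than in S. Txnip, which binds thioredoxin and limits glucose uptake, had 1770, 1068 and 548 CPM in NKT-like cells of HFD_EXE, HFD_sed and S, and 1587, 911 and 599 CPM in Klrb1c-zero T cells. Gpr65, a receptor that senses acid, had 302, 216 and 82.6 CPM in NKT-like cells and 234, 164 and 69.7 CPM in Klrb1c-zero T cells. Over all members, Ifngr1, a chain of the interferon gamma receptor, was higher with a log2 ratio of 1.36 for HFD_EXE over S (1.21 to 1.51) and 1.17 for HFD_sed over S (0.98 to 1.35). Il7r followed at 1.59 (1.44 to 1.74) and 0.95 (0.75 to 1.15). Albumin (Alb) RNA, made by hepatocytes, was lower in both, with 162, 119 and 535 CPM in NKT-like cells and 186, 169 and 683 CPM in Klrb1c-zero T cells, and was detected in 50.7%, 28.4% and 91.1% of members.

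HFD_sed members carried more transcripts of several NK receptors and of some chemokines. Ccl4, a chemokine that draws T cells and macrophages, had 350, 973 and 158 CPM in NKT-like cells of HFD_EXE, HFD_sed and S, with a log2 ratio of 2.62 for HFD_sed over S (2.39 to 2.86). Klra7 had 66.2, 190 and 39.3 CPM (2.28 for HFD_sed over S, 1.78 to 2.78). Of the lectin receptors measured, 8 of 13 were at least 2-fold higher and 1 lower in HFD_sed than in S, with a median log2 ratio of 1.28 beside 0.02 over all genes measured. For HFD_EXE over HFD_sed, 1 of 14 was higher and 5 lower (median −0.84, beside −0.03 over all genes). Over all members, 8 of 15 were higher and 1 lower in HFD_sed than in S, beside 3.82% and 4.5% of all genes. For HFD_EXE over HFD_sed, 0 of 14 were then higher and 5 lower, beside 4.36% and 3.44%. HFD_sed was also the library with the most members holding 2 or more Gzma UMIs. Without the cells holding another type's markers, 4 of 11 cytokines and chemokines were at least 2-fold higher in HFD_sed than in S (Csf2, Ccl3, Ccl4 and Ccl5). The lower ones were 2 (Tnf and Csf1). Over all members, 3 of 11 were higher (Csf2, Ccl3 and Ccl4) and 0 lower, beside 3.82% and 4.5% of all genes. Ccl5 was also found in 30.53% of B cells and 44.17% of endothelial cells in HFD_sed, against 7.004% and 12.01% in S. The part of such carried-over RNA in the Ccl5 ratio was not tested. Of 13 early response and heat shock genes, Hspa1a was 2-fold lower without the cells holding another type's markers. The rest were then within 2-fold, with a median of 0.43. Over all members, 3 of the 13 were higher (Fos, Atf3 and Zfp36) and 0 lower. Fos, an early response gene that tissue dissociation can also induce, had 431, 1390 and 740 CPM in NKT-like cells and 401, 1179 and 752 CPM in Klrb1c-zero T cells. Ikzf2, the transcription factor Helios, had 60.9, 342 and 82.6 CPM in NKT-like cells and 108, 350 and 87.1 CPM in Klrb1c-zero T cells.

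Of the NKT identity genes, few were 2-fold different between libraries. Over all members, 1 of 16 was lower in HFD_EXE than in HFD_sed (Icos), beside 3.44% of all genes. Between HFD_sed and S, 1 of 15 was lower (Slamf1), beside 4.5%. Between HFD_EXE and S, Nfil3 was higher and Tbx21 lower, beside 3.45% and 2.52%. Without the cells holding another type's markers, Slamf1 and Tbx21 were within 2-fold. Zbtb16 then had 92.7 CPM in HFD_EXE (75.8 to 112), 64.9 CPM in HFD_sed (43.8 to 92.6) and 75.8 CPM in S (62.4 to 91.2), with intervals that overlapped. Cxcr6 had 395, 560 and 663 CPM in HFD_EXE, HFD_sed and S, and Tbx21 had 60.0, 84.3 and 116 CPM. Il4, a cytokine, had 26.5, 49.7 and 66.3 CPM, and the intervals of HFD_EXE (17.9 to 37.8) and S (53.9 to 80.9) did not overlap.

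**Figure D4:**
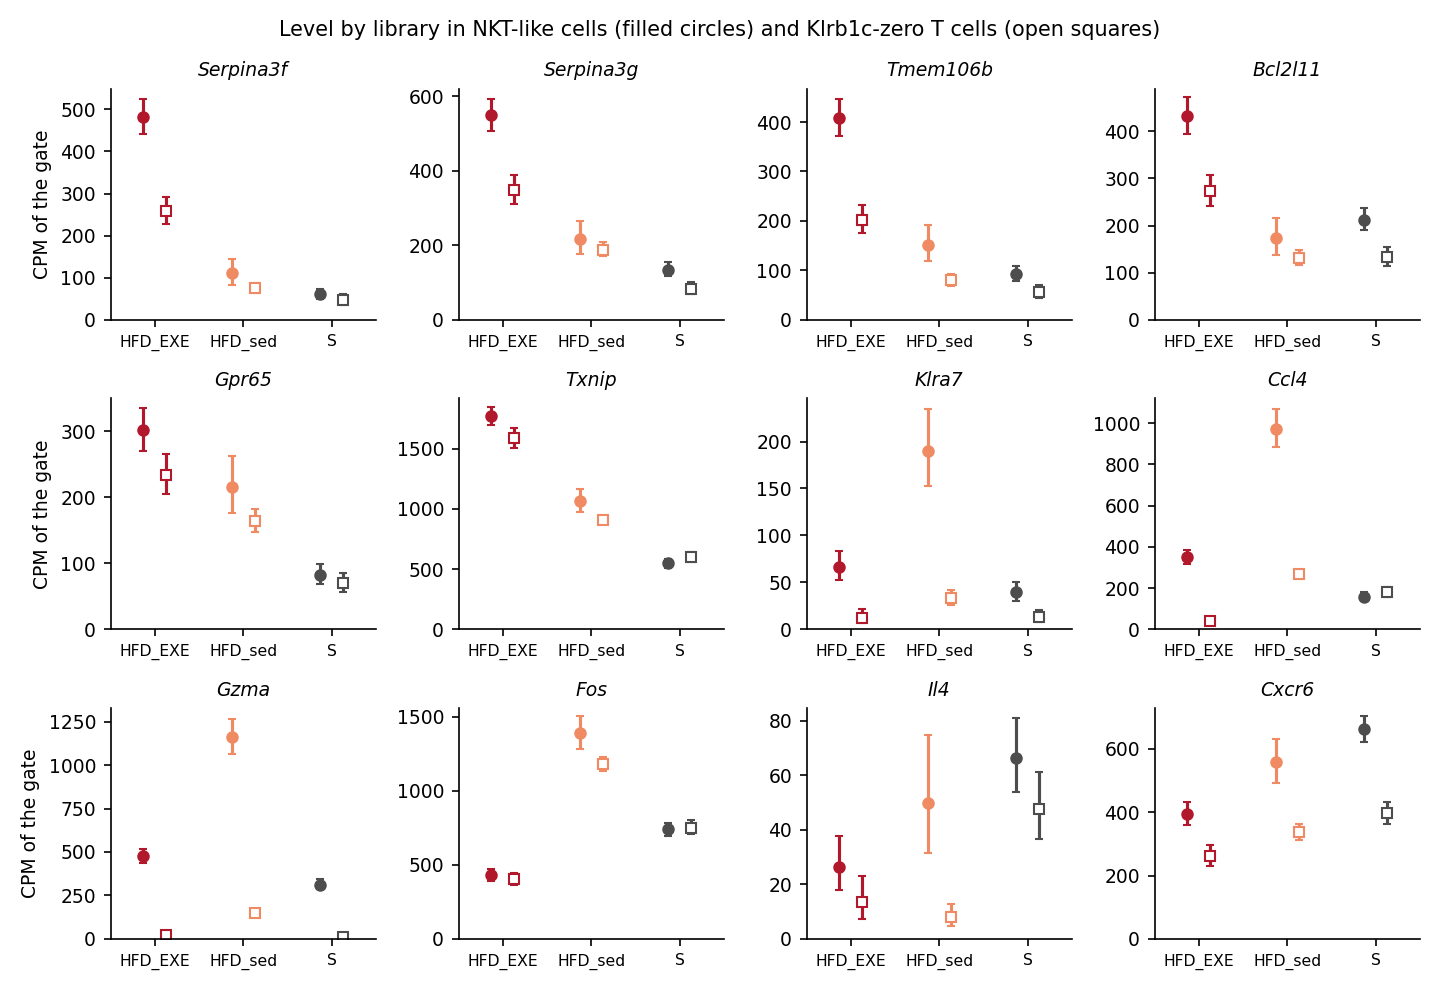
Level (CPM of the summed gate) of 12 genes by library in NKT-like cells (filled circles) and Klrb1c-zero T cells (open squares), with exact Poisson 95% intervals for counting error and without cells holding 10 or more UMIs of another type's markers. Serpina3f to Txnip are highest in HFD_EXE, Klra7, Ccl4, Gzma and Fos in HFD_sed, and Il4 and Cxcr6 in NKT-like cells of S.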

How the data were processed

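Per the labels' protocols, enzyme-digested livers were freed of red blood cells and dead cells before 10x Genomics 3′ libraries were made. Cell Ranger 6.1.2 and the build GRCm39 stand in the submitters' processing notes, with counting settings not given in the sources used here. Raw UMI counts per gene and barcode were deposited. Identifiers with the same symbol were added up, and cells were kept with at least 500 UMIs, 300 genes and under 15% mitochondrial UMIs. Doublets were not removed beyond the rule; Scrublet (Scanpy 1.11.5) scores served an alternative.

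Counts of cells passing the rule, or the same rule with Klrb1c at 0, or cells with Klrb1c and Ncr1 but without Cd3, were summed per library. Genes with at least 30 UMIs over the 6 sums of a contrast were tested with edgeR 4.0.16 (R 4.3.3, quasi-likelihood, TMM, library as a block, Benjamini-Hochberg); DESeq2 1.42.0 was an alternative. The fit was also run on simulated counts without library differences and with the same dispersion (spread beyond counting error) for both contrasts. The estimates were 0.0107 against Klrb1c-zero T cells and 0.0667 against NK cells. That run therefore does not measure how the fit performs on these sums. CPM are counts scaled by the UMI total of the gate. Shares carry exact binomial, levels exact Poisson and ratios between libraries conditional binomial 95% intervals (SciPy 1.17.1), for counting error only. The floor was 3 counts. The 3′ counts do not allow levels of different genes to be compared per length.

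The members and the 27 gene lists (286 genes) were chosen with earlier results of these data known. Named were the 8 genes per direction with the smallest p that were called, at least 2-fold and of one direction in each library, and between libraries the 6 per direction with the interval bound farthest from no change; genes of the rule, mitochondrial, ribosomal, haemoglobin, antigen receptor, sex-linked and unnamed genes were left out, and listed genes could be named besides. Promoters came from RefSeq (GRCm38.p6), matched by symbol.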

Additional observations from a re-analysis of the deposited data

Results flagged for a closer look

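For 7 genes the log2 ratio of NKT-like over Klrb1c-zero T cells pointed in opposite directions in different libraries, with intervals for counting error that excluded 0 on both sides; the difference between libraries itself was not tested. Ccl1 was at least 3.54 in HFD_EXE, −1.99 in HFD_sed and at most −5.63 in S, where the HFD_EXE and S values are bounds at a floor of 3 counts in the gate of 1 library; 1 HFD_EXE member held 32 of the 35 UMIs. Mki67, a gene of dividing cells, was at 1.74 in HFD_EXE, −2.50 in HFD_sed and −0.78 in S, and 1 HFD_EXE member held 58 of 120 UMIs. Cenpf was at 1.77 in HFD_EXE and at most −1.37 in HFD_sed, again a bound, and 2 HFD_EXE members held all of its 65 UMIs. Dcn was at −1.90 in HFD_EXE and 4.85 in S, where 1 member held 121 of 124 UMIs. Rnase4 was at −1.37 in HFD_EXE and 0.88 in S, where 1 member held 48 of 93 UMIs. Ly6a was at 0.37 in HFD_EXE and −0.48 in HFD_sed. Txnip was at 0.20 in HFD_EXE, 0.22 in HFD_sed and −0.20 in S.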

How the results depend on the processing

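No paired analysis was possible because the groups share no replicate number; the library block pairs gates of the same library, and with no replicate block 9 genes were higher and 15 lower than in Klrb1c-zero T cells, against 327 and 438 with it. There DESeq2 called 133 and 138, thinning to 1500 UMIs 32 and 35 and leave-one-out fits 165 to 403 and 250 to 572. The lower genes numbered 220 without the highest Scrublet scores and 238 without cells carrying another type's markers. Against NK cells (137 and 92), DESeq2 called 65 higher and 53 lower, thinning 48 and 54, the wider gate 289 and 289, leave-one-out fits 18 to 160 and 28 to 149, and no scaling 184 lower. At a minimum of 100 UMIs, the 2-fold counts, higher and lower, were 64 and 62 for HFD_EXE over HFD_sed, 76 and 55 for HFD_sed over S and 93 and 49 for HFD_EXE over S; after thinning they were 39 and 47, 63 and 51, and 71 and 56. Without cells carrying another type's markers, 165 genes were lower in HFD_EXE than in HFD_sed. Shares among cells meeting the rule apart from Klrb1c in HFD_EXE, HFD_sed and S were 35.1%, 9.46% and 33.3% at 2 or more Klrb1c UMIs and 25.9%, 7.17% and 25.2% after thinning; of kept cells they were 1.61%, 0.660% and 1.53%, and 1.13%, 0.510% and 1.20%. Without members holding 2 or more Gzma UMIs, the HFD_sed shares were 10.4% and 0.723%, and the Gzma log2 ratio over Klrb1c-zero T cells was −3.23, by construction. For HFD_sed over S, S100a8 turned to −0.025 without cells carrying another type's markers and S100a9 to −4.43 after thinning. Both genes are among the neutrophil markers by which cells were left out, so the S100a8 change follows in part from the choice. In HFD_sed, 1 member held 241 of 440 S100a8 UMIs, and 1 member held 325 of 567 S100a9 UMIs. Beyond that, the cause was not tested. Of the other values of named genes against Klrb1c-zero T cells, 232 kept their direction and call and 7 lost the call. Fewer cells and UMIs remain after thinning. Alternatives on Ncr1, Gzma, other types' markers and the wider gate were chosen after seeing the data.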
